A study of Rattus norvegicus with 8 samples.

Results

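The miRNAs described here are the miR-7 and miR-153 families together with miR-671, in the striatum of METH and saline self-administered rats. They were taken by name from a table of 752 mature miRNAs, and all 7 listed names were present, namely rno-miR-7a-5p, rno-miR-7a-1-3p, rno-miR-7a-2-3p, rno-miR-7b, rno-miR-153-3p, rno-miR-153-5p and rno-miR-671. All 7 were among the 507 miRNAs that passed the low-count filter and were tested.

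Small RNA was sequenced from 4 rats that self-administered methamphetamine (METH) and 4 rats that self-administered saline, with 1 striatal library per rat. The rats were male Sprague-Dawley animals of genotype WT that had been trained to press a lever for food and fitted with a jugular catheter, and the saline rats underwent the same procedures. The study's methods state that rats with stable lever pressing in each group were picked for plasma sampling, and do not say whether the sequenced rats are these. An age was not given in the labels, and rats are numbered here as in the sample titles. The libraries come from bulk striatal tissue, so fewer cells of a type and less of a miRNA per cell cannot be told apart. Each library is a separate rat, and the p-values measure the spread between rats. Library totals ranged from 12929302 to 27632443 counts. The neuronal list (miR-124-3p, miR-9a-5p, miR-128-3p, miR-137-3p and miR-138-5p) summed to between 278805 and 483539 CPM (a count scaled to the library size with TMM factors) in all 8 libraries, and miR-124-3p alone held 22.9% of counts on average. METH rat 4 stood apart, at -21.5 on the first principal component of log2 CPM, against -2.83 to 7.29 in the other 7 libraries, so results that turn on it are given with and without it.

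A miRNA is cut from a hairpin precursor, and 1 or both arms of the hairpin are loaded into an Argonaute protein. The seed, which is bases 2 to 8 of the mature strand, pairs with target mRNAs and lowers their stability or translation. miR-7 is abundant in neurons and in endocrine cells, and miR-153 comes from within Ptprn2, which encodes a protein of secretory vesicles. The circular RNA Cdr1as carries many sites for miR-7 and a site for miR-671 through which it can be cut, which places miR-671 in the same circuit. The question here was whether METH self-administration was accompanied by a different level of these miRNAs.

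The mature sequences are shown first because they decide which counts can be told apart. They are RefSeq sequences of the assembly GRCr8, written 5′ to 3′ with the seed in capitals, and a RefSeq entry was found for each of the 7 names.
miR-7a-5p: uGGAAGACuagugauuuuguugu
miR-7b: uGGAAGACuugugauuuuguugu
miR-7a-1-3p: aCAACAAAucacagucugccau
miR-7a-2-3p: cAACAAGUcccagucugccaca
miR-153-3p: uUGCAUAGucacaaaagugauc
miR-153-5p: gUCAUUUUugugauguugcagcu
miR-671: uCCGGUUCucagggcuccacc

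miR-7a-5p and miR-7b have the same seed and are identical at 22 of 23 positions. The difference, counted from the 5′ end of miR-7a-5p, is A10U, outside the seed. Among 693 mature rat names in the RefSeq table, no miRNA other than this pair carried the seed GGAAGAC. The seeds of miR-153-3p, miR-153-5p, miR-7a-2-3p and miR-671 were each found in no other name, and that of miR-7a-1-3p was shared with miR-3065-5p.

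The hairpins show from which gene each count can come. Each is printed with the listed mature arms in capitals and has its GRCr8 position, whereas the reads had been aligned to rn6, and rn6 positions were not analysed here.
Mir7-1, chr17:6278692-6278788 (+): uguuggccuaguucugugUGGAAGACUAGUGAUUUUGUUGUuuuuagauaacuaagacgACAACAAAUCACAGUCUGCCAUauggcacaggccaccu
Mir7a-2, chr1:142215800-142215894 (+): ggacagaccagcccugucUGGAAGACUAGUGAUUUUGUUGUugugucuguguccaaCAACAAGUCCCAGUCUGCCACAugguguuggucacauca
Mir7b, chr9:1167436-1167545 (+): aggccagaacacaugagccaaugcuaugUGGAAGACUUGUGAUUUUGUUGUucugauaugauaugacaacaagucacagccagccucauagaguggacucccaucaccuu
Mir153, chr6:144306594-144306680 (+): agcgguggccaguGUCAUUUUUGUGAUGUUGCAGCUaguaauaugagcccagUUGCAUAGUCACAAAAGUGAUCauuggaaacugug
Mir671, chr4:11473194-11473274 (-): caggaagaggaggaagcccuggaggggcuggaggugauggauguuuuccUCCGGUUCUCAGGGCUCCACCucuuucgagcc

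The same miR-7a-5p is encoded by Mir7-1 and by Mir7a-2 (Mir8 in the RefSeq table), so its count cannot be assigned to a gene. The 3p arms differ, and miR-7a-1-3p and miR-7a-2-3p therefore each mark 1 gene. Mir7-1 lies within the span of Hnrnpk, which encodes an RNA-binding protein, Mir153 lies within Ptprn2, and Mir671 within Chpf2, a gene of chondroitin synthesis. The table gives no exons, so intron and exon were not assigned. The strand listed as miR-671 occupies bases 50 to 70 of an 81-base hairpin, which is the 3′ arm. The strand known for cutting Cdr1as is the other arm, miR-671-5p, for which no count was analysed here. The values of miR-671 below therefore belong to the partner arm of the strand that acts in the circuit.

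The 7 miRNAs covered a wide range of levels. miR-7a-5p was the 8th most abundant miRNA by mean share and took 2.89% of counts, between miR-127-3p at 2.99% and miR-138-5p at 2.69%. Within single libraries its rank lay between 6 and 12. miR-7b was at rank 48 with 0.282% of counts, miR-153-3p at rank 57 with 0.234%, and miR-153-5p at rank 129 with 0.0348%. The marker arms of the miR-7a genes were far lower, with miR-7a-1-3p at rank 191 and miR-7a-2-3p at rank 294. miR-671 was at rank 443, with 310 counts over all 8 libraries. In that order, miR-7b and miR-153-3p were not separated, since their values overlapped in both groups, whereas the ranges of the other neighbours did not overlap over the 8 rats. These are levels of mature strands of 21 to 23 bases, compared as CPM without correction for length.

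**Figure D1:**
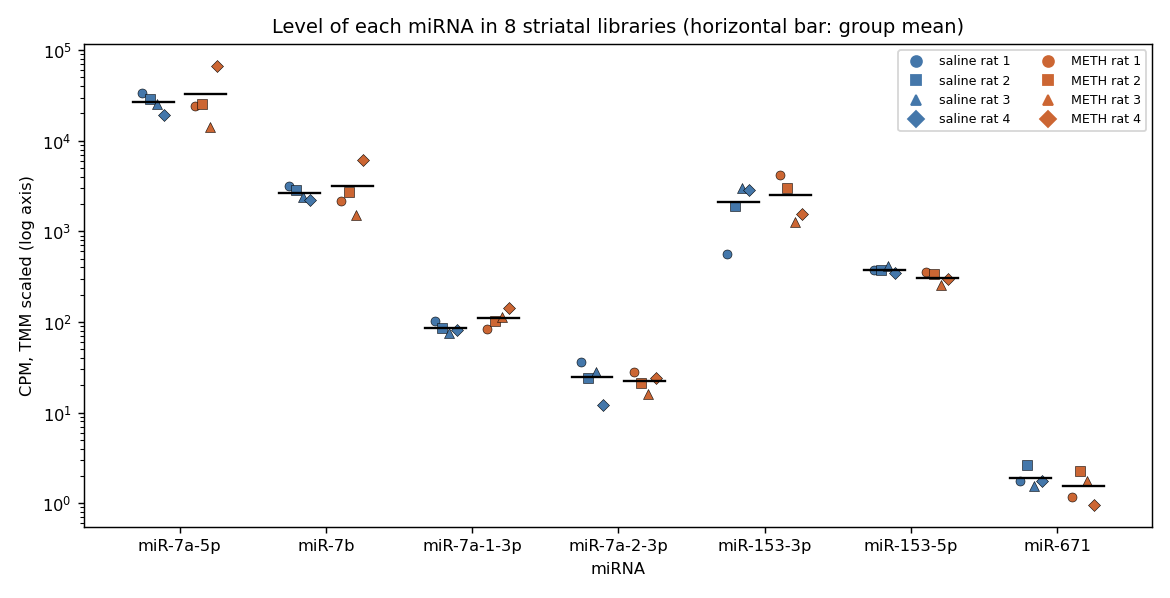
Level of each miRNA in CPM scaled with TMM factors (y axis, log scale) in 4 saline (blue) and 4 METH (orange) libraries, with 1 symbol per rat and a horizontal bar at the group mean. The groups overlapped for every miRNA, METH rat 4 was highest for miR-7a-5p at 66916 CPM, and saline rat 1 was lowest for miR-153-3p at 567 CPM.

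Across METH and saline, 0 of the 7 had an adjusted p under 0.05 in the edgeR quasi-likelihood fit, where the share of all 507 tested miRNAs was 0%. At an unadjusted p under 0.05 there were also 0 of 7, against 5.52% of all tested. None of the 7 had groups that did not overlap, compared with 3.16% of all tested miRNAs. The median log2 fold change of the 7 was 0.24, with 4 above and 3 below zero, and the median over all tested miRNAs was -0.02. With DESeq2, the edgeR likelihood ratio test and the edgeR exact test, the number of calls over all miRNAs was 8, 7 and 6, and the lowest adjusted p of any of the 7 miRNAs under any setting was 0.418.

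miR-7a-5p is the main strand of the miR-7 family. Its level in saline rats 1 to 4 was 33725, 28951, 25472 and 19025 CPM. In METH rats 1 to 4 it was 24303, 25720, 14315 and 66916 CPM. The METH group thus held both the lowest and the highest library of the study, which differed 4.67-fold, and the saline rats lay between them. The means were 26793 ± 6186 CPM (SD, n = 4) in saline and 32813 ± 23295 CPM (SD, n = 4) in METH. METH exceeded saline by 0.29 ± 0.43 (SE) on the log2 scale (edgeR adjusted p = 0.939), and the 95% interval ran from -0.67 to 1.25, or from 0.629-fold to 2.39-fold. Without METH rat 4 the METH mean was 21446 ± 6217 CPM (SD, n = 3) and the log2 fold change turned to -0.31, with an adjusted p of 0.998. The direction of this difference was thus set by 1 library.

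miR-7b, the family member from its own gene, followed the same pattern at a lower level. Saline rats 1 to 4 had 3131, 2864, 2397 and 2237 CPM, and METH rats 1 to 4 had 2144, 2719, 1509 and 6194 CPM. As for miR-7a-5p, METH rat 3 was lowest and METH rat 4 highest. For miR-7b the log2 fold change came to 0.24 ± 0.39 (SE; edgeR adjusted p = 0.942), with a 95% interval from -0.64 to 1.12. It was -0.31 without METH rat 4.

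Because a target cannot distinguish the shared seed, the levels of miR-7a-5p and miR-7b were also added. The sum took between 2.09% and 3.92% of counts in saline rats and between 1.52% and 5.6% in METH rats. The mean was 29450 ± 6582 CPM (SD, n = 4) in saline and 35955 ± 25381 CPM (SD, n = 4) in METH. The difference between the group means of log2 CPM was 0.08, far smaller than the SD of 0.34 among saline and 0.92 among METH rats. This measure is unlike the fitted fold change given for miR-7a-5p, whose mean log2 CPM was 14.68 in saline and 14.76 in METH. For the sum, an exact permutation test, two-sided like all those below, gave p = 0.914. With 4 rats against 4 that test cannot go below 0.0286. Without METH rat 4 the difference was -0.34 (exact permutation test, p = 0.343), and it was also below zero without saline rat 4, at -0.07, and with library totals in place of TMM factors, at -0.05.

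The ratio of miR-7b to miR-7a-5p was the steadiest feature of the family. In saline rats 1 to 4 miR-7b made up 8.49%, 9.0%, 8.60% and 10.5% of the sum of both, and in METH rats 1 to 4 it made up 8.11%, 9.56%, 9.54% and 8.47%. Saline rat 4 was the highest and METH rat 1 the lowest. The count ratio varied 1.33-fold over the 8 libraries while the level of miR-7a-5p varied 4.67-fold. The mean log2 ratio was -3.32 ± 0.16 (SD, n = 4) in saline and -3.36 ± 0.13 (SD, n = 4) in METH (exact permutation test, p = 0.743; 0.857 after adjustment over 6 ratios). The difference of -0.04 was 0.04 without saline rat 4 and 0.01 without METH rat 1. The SD of this ratio over all 8 libraries was 0.14 log2 units. Among the 506 other tested miRNAs, 0 had a smaller SD of their ratio to miR-7a-5p, and the median SD was 0.84. The Pearson correlation of the log2 CPM values was 0.981 over 8 libraries, with a Spearman correlation of 0.976, and Pearson's r was 0.943 without METH rat 4. These points share library depth and scaling. The strands differ by a single base, and the rule the authors used for reads with several alignments was not given, so reads passing between them could not be measured.

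**Figure D2:**
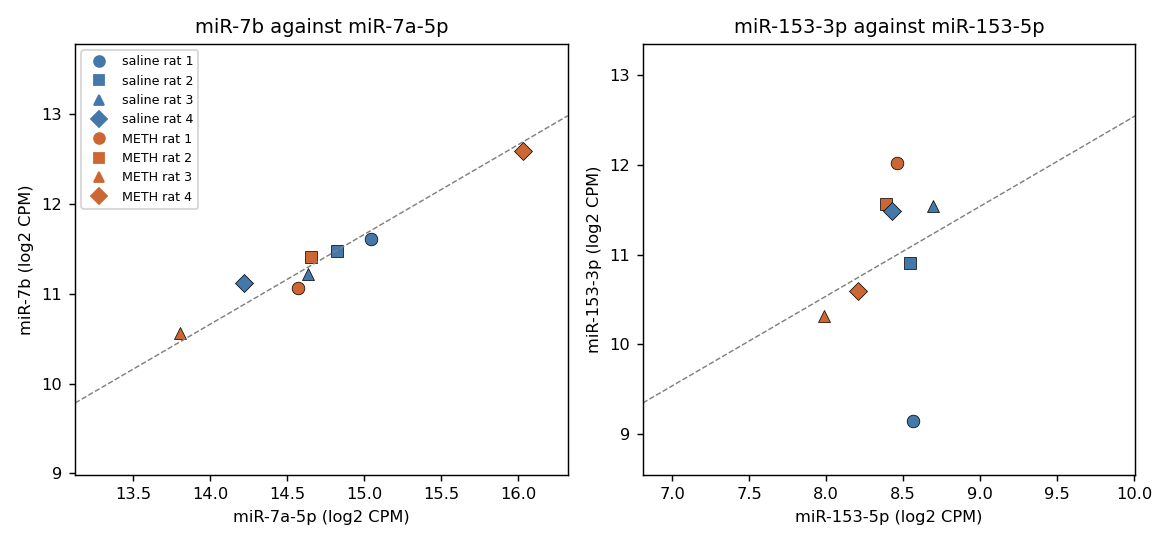
Level of miR-7b against miR-7a-5p (left) and of miR-153-3p against miR-153-5p (right), both axes in log2 CPM, with 1 symbol per rat, saline in blue and METH in orange; the dashed line has a slope of 1 through the mean. The miR-7 points lie along the line (Pearson's r of 0.981), and the miR-153 arms do not (Pearson's r of 0.193), with saline rat 1 far below.

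The 3p arms were then used to compare the miR-7a genes. Counts of miR-7a-1-3p, from Mir7-1, were 2300, 2000, 2098 and 2078 in saline rats 1 to 4 and 1209, 2057, 2833 and 2378 in METH rats 1 to 4. In CPM these corresponded to 103, 85.8, 76.5 and 81.2 in saline and to 83.0, 104, 114 and 143 in METH. With TMM factors the upper 3 METH rats lay above every saline rat, but METH rat 1 lay within the saline range. The margin was small for METH rat 2, at 103.5 CPM against 103.1 CPM in saline rat 1. In CPM of the raw totals no METH rat lay above every saline rat. Saline rat 1 was then highest, at 109.8, and METH rats 2 to 4 were at 104.8, 109.6 and 109.4. The log2 fold change of miR-7a-1-3p came to 0.36 ± 0.24 (SE; edgeR adjusted p = 0.818), and the 95% interval ran from -0.18 to 0.89. It stayed above zero in each of the 18 alternative settings, between 0.20 and 0.49.

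For miR-7a-2-3p, from Mir7a-2, the counts were 801, 567, 766 and 307 in saline rats 1 to 4 and 409, 424, 400 and 403 in METH rats 1 to 4. The levels were 25.0 ± 9.95 CPM (SD, n = 4) in saline and 22.4 ± 5.03 CPM (SD, n = 4) in METH. Saline rat 4, at 12.0 CPM, was the lowest of all, and saline rat 1, at 35.9 CPM, the highest. The log2 fold change was -0.16 ± 0.35 (SE; edgeR adjusted p = 0.978), and it became 0.12 without saline rat 1.

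miR-7a-2-3p made up 25.8%, 22.1%, 26.7% and 12.9% of the 3p counts of both genes in saline rats 1 to 4. In METH rats 1 to 4 it made up 25.3%, 17.1%, 12.4% and 14.5%. The Mir7-1 arm thus predominated in every library, by 2.74-fold to 7.08-fold. Low shares of the Mir7a-2 arm were seen in 3 METH rats and in saline rat 4, so the groups overlapped. The mean log2 ratio of miR-7a-1-3p to miR-7a-2-3p was 1.89 ± 0.60 (SD, n = 4) in saline and 2.31 ± 0.54 (SD, n = 4) in METH (exact permutation test, p = 0.343). After adjustment over the 6 ratios this p was 0.857. The difference of 0.42 was 0.71 without saline rat 4, 0.67 without METH rat 1, 0.27 without saline rat 3, 0.25 without METH rat 3 and 0.75 between medians. These shares describe the 3p strands that were kept, and not the miR-7a-5p made by each gene.

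The 5p strand exceeded its 3p partners throughout. The count of miR-7a-5p was between 234 and 337 times that of miR-7a-1-3p in saline rats and between 125 and 469 times in METH rats. METH rat 3 had the lowest ratio and METH rat 4 the highest, so the METH group again spanned the saline group. The mean log2 ratio was 8.25 ± 0.25 (SD, n = 4) in saline and 8.0 ± 0.79 (SD, n = 4) in METH (exact permutation test, p = 0.629). The difference of -0.25 was 0.09 without METH rat 3, -0.54 without METH rat 4 and -0.38 without saline rat 4. Over miR-7a-2-3p, miR-7a-5p was higher by 865-fold to 2766-fold, with the largest value again in METH rat 4. The mean log2 ratio was 0.17 higher in METH (exact permutation test, p = 0.857), and the difference was -0.21 without METH rat 4 (exact permutation test, p = 0.429). In METH rat 4 miR-7a-5p was at 66916 CPM and in the next highest rat at 33725 CPM, whereas miR-7a-2-3p, at 24.2 CPM, lay near the mean of either group.

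**Figure D3:**
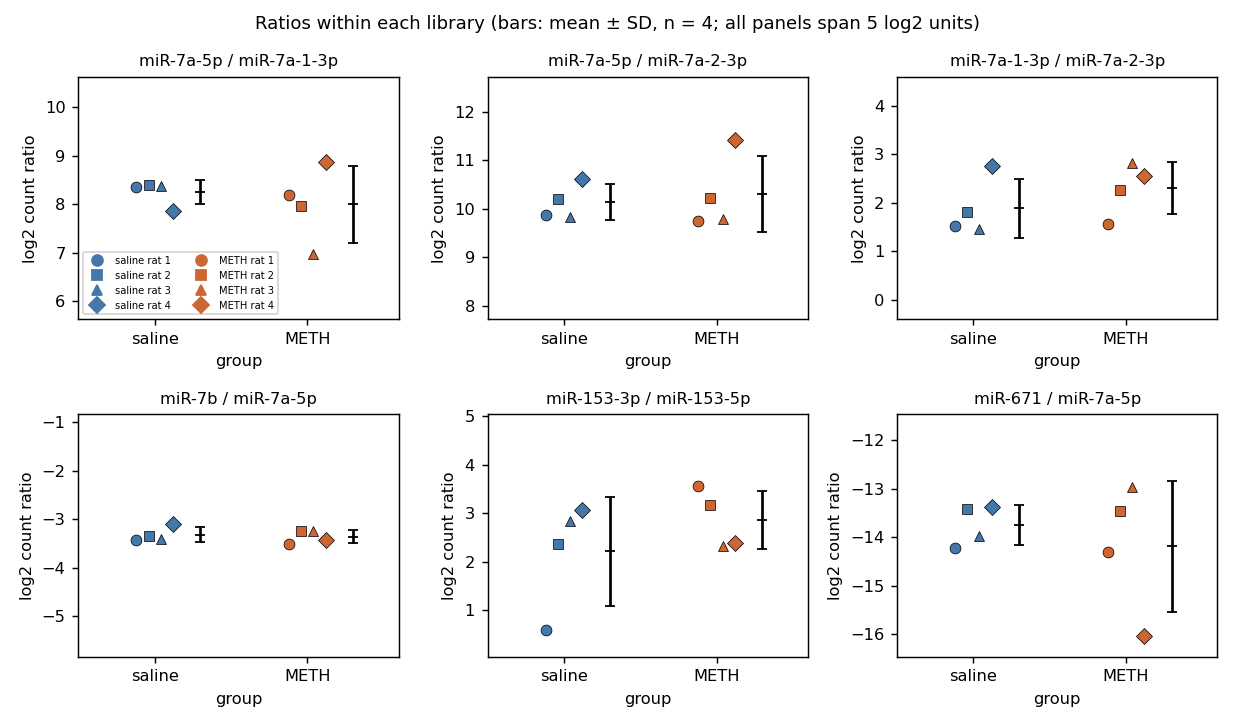
Log2 ratio of counts within each library for 6 pairs of miRNAs, by group (saline in blue, METH in orange, 1 symbol per rat), with the mean ± SD of 4 rats beside the points and a span of 5 log2 units in each panel. The groups overlap in every panel, the points of miR-7b over miR-7a-5p lie closest together, and saline rat 1 lies apart for the miR-153 arms at 0.58.

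miR-153-3p is the more abundant strand of the Mir153 hairpin. Its level in saline rats 1 to 4 was 567, 1921, 2973 and 2870 CPM. In METH rats 1 to 4 it was 4151, 3030, 1275 and 1546 CPM. METH rats 1 and 2 were above every saline rat, METH rats 3 and 4 were below 3 of the saline rats, and saline rat 1 was lowest of all. The means were 2083 ± 1116 CPM (SD, n = 4) in saline and 2501 ± 1344 CPM (SD, n = 4) in METH. For this strand the log2 fold change came to 0.26 ± 0.52 (SE; edgeR adjusted p = 0.975), within a 95% interval from -0.89 to 1.42. Without saline rat 1 it was 0.0076, and without METH rat 1 it was -0.09. This strand varied more between rats than most, with an SD of 0.92 log2 units over 8 libraries, against a median of 0.48 over all tested miRNAs and with 50 miRNAs above it.

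miR-153-5p, the other arm of the same hairpin, was far steadier. Saline rats 1 to 4 had 378, 373, 414 and 345 CPM and METH rats 1 to 4 had 352, 336, 254 and 295 CPM. METH rat 1 was above saline rat 4, and the other 3 METH rats were below every saline rat. The log2 fold change was -0.29 ± 0.20 (SE; edgeR adjusted p = 0.818), with a 95% interval from -0.73 to 0.15. The exact permutation test of log2 CPM gave an unadjusted p of 0.0571, the lowest of the 7. The fold change stayed below zero in each of the 18 alternative settings, between -0.39 and -0.17. The SD over 8 libraries was 0.22, and 472 of the 507 tested miRNAs had a larger one.

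The arms of miR-153 come from the same precursor, so their ratio was examined. miR-153-3p made up 60.0%, 83.8%, 87.8% and 89.3% of the counts of both arms in saline rats 1 to 4, and 92.2%, 90.0%, 83.4% and 84.0% in METH rats 1 to 4. The 3p arm predominated in all 8 libraries, least in saline rat 1. The log2 ratio was 2.21 ± 1.12 (SD, n = 4) in saline and 2.86 ± 0.60 (SD, n = 4) in METH (exact permutation test, p = 0.371; 0.857 adjusted over the 6 ratios). The difference of 0.65 was 0.11 without saline rat 1 and 0.18 between medians. Pearson's r between the arms was 0.193 over 8 libraries and 0.706 without saline rat 1. Over 174 precursors with both arms tested, the median r between arms was 0.194 and the median SD of the log2 arm ratio was 0.63. The SD for miR-153 was 0.90, and 43 precursors had a larger one. Of these 174 ratios, 2.30% did not overlap between the groups, and that of miR-153 was not among them.

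miR-671 was scarce. Its counts were 39, 61, 43 and 45 in saline rats 1 to 4 and 17, 45, 44 and 16 in METH rats 1 to 4. METH rats 1 and 4 had the lowest levels, at 1.17 and 0.961 CPM, whereas METH rats 2 and 3 lay among the saline rats. The 16 counts of METH rat 4 correspond to 0.736 CPM of its raw total, with an exact (Clopper-Pearson) 95% interval from 0.421 to 1.20, and the 61 counts of saline rat 2 to 3.02 CPM, with an interval from 2.31 to 3.87. The log2 fold change was -0.31 ± 0.34 (SE; edgeR adjusted p = 0.909), with a 95% interval from -1.07 to 0.45. It was -0.11 without saline rat 2, -0.12 without METH rat 4, -0.20 without METH rat 1 and -0.59 without METH rat 2. Set against miR-7a-5p, the mean log2 count ratio was -13.75 ± 0.41 (SD, n = 4) in saline and -14.19 ± 1.35 (SD, n = 4) in METH (exact permutation test, p = 0.657). The difference of -0.44 turned to 0.18 without METH rat 4 (exact permutation test, p = 0.686). In METH rat 4 miR-671 was lowest where miR-7a-5p was highest, with 69657 counts of miR-7a-5p for each count of miR-671, against 8064 to 20815 in the other 7 libraries.

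**Figure D4:**
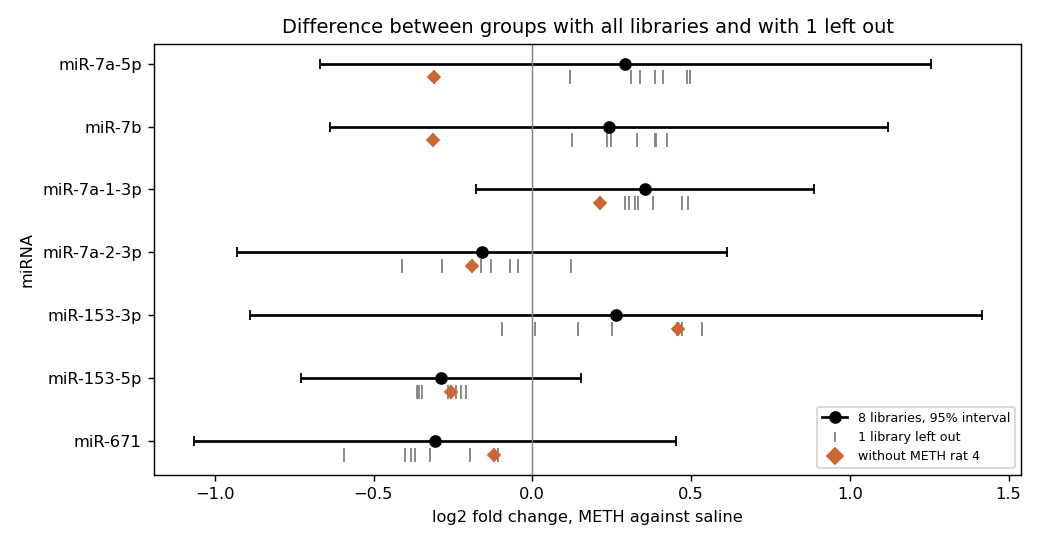
Log2 fold change of METH against saline (x axis) for each miRNA in the edgeR quasi-likelihood fit, with its 95% interval in black, and below it the values with 1 library left out (grey ticks), of which that without METH rat 4 is an orange diamond. Every interval includes 0, and miR-7a-5p and miR-7b move from 0.29 and 0.24 to -0.31 without METH rat 4.

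Correlations between the miR-7 and miR-153 families depended on the strand and on METH rat 4. Between miR-7a-5p and miR-153-3p Pearson's r was -0.24 over the 8 libraries and -0.19 without METH rat 4. Between miR-7a-5p and miR-153-5p it was 0.138, and 0.819 without METH rat 4. miR-7b and miR-153-5p gave 0.0878, and 0.783 without that rat, whereas miR-7a-1-3p and miR-153-5p gave -0.72 and -0.71. For miR-7a-5p and miR-671 it was -0.47, and 0.173 without METH rat 4. These are descriptions over 8 libraries that share depth and scaling.

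The miRNAs whose pattern was most like that of each main strand were named by the 3 highest Pearson correlations of log2 CPM over the 8 libraries, outside the 7. For miR-7a-5p these were miR-448-3p (r = 0.939), let-7a-5p (r = 0.932) and miR-98-5p (r = 0.925), the last 2 being members of the let-7 family. Without METH rat 4 these were 0.807, 0.804 and 0.762, and none of the 3 was among the nearest 3. For miR-153-3p the nearest were miR-137-3p (r = 0.957), which is a neuronal miRNA, miR-142-5p (r = 0.938), which marks blood-derived cells, and miR-190a-3p (r = 0.928). The first of these was at 1998 ± 486 CPM (SD, n = 4) in saline and 1968 ± 432 CPM (SD, n = 4) in METH. miR-142-5p was scarce, with 28 to 92 counts in each library. For miR-671 the nearest were miR-879-3p (r = 0.944), miR-330-3p (r = 0.901) and miR-29b-5p (r = 0.899).

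Markers of other tissue moved with some of these libraries. miR-7 is also abundant in pituitary and other endocrine cells, so a list of 6 miRNAs of such cells and of epithelia (miR-375-3p, miR-141-3p, miR-200a-3p, miR-200b-3p, miR-200c-3p and miR-429) was summed. It was between 183 and 261 CPM in saline rats and 353, 435, 1757 and 753 CPM in METH rats 1 to 4. All 6 were present, and none was at 0 in any library. All 6 had a log2 fold change above zero. In the edgeR quasi-likelihood fit, 0 had an adjusted and 5 an unadjusted p under 0.05. Over all 507 tested miRNAs the shares were 0% and 5.52%, and 240 lay above zero. The 5 were all but miR-375-3p. The study's own edgeR analysis of its small RNA sequencing had listed each of them as raised in METH, at an adjusted p under 0.05. The list was therefore not independent of that earlier result. In METH rat 3 most of the sum came from the other 5 miRNAs, which are known from epithelia, and miR-375-3p, a miRNA of endocrine cells, was at 170 CPM. In METH rat 4 most of the sum was miR-375-3p, at 731 CPM, against 129 to 285 CPM in the other 7 libraries. The rat with the most miR-7a-5p was thus also the rat with the most miR-375-3p. In METH rat 4, the rat with the most miR-7a-5p, the choroid plexus list of 3 (miR-204-5p, miR-211-5p and miR-449a-5p) summed to 7105 CPM, against 2745 to 3546 CPM in the other 7 libraries, and each of the 3 was highest there. Of the erythrocyte markers, miR-451-5p was at 2807 CPM in that rat, against 340 to 646 CPM in the others, and miR-144-3p at 9.13 CPM, against 1.01 to 3.87 CPM. miR-144-5p, at 0.901 CPM, lay within the range of the others, while the listed marker miR-486 was not analysed here. Other lists were split in that rat. Of the oligodendrocyte list, miR-219a-2-3p was highest there, at 4119 CPM against 1428 to 2770 CPM, but miR-219a-5p and miR-338-3p were lowest there, at 113 and 259 CPM. Of the endothelium pair, miR-126a-3p was highest, at 10572 CPM against 7773 to 9216 CPM, and miR-126a-5p lowest, at 128 CPM against 232 to 389 CPM. Of the leukocyte and microglia list, miR-150-5p was lowest, at 665 CPM against 1053 to 2066 CPM, miR-223-3p was highest, at 14 CPM against 2.64 to 4.08 CPM, and miR-142-3p and miR-142-5p lay within the range of the others. Of the neuronal list, miR-9a-5p was highest, and miR-124-3p and miR-138-5p were lowest. In saline rat 1, the rat with the least miR-153-3p, the neuronal list was at 299256 CPM, and saline rat 2 was lower, at 278805 CPM. Of that list, miR-137-3p was lowest in saline rat 1, at 1356 CPM against 1545 to 2470 CPM. miR-128-3p was highest there, at 12541 CPM, and the rest lay within the range of the others. Of the leukocyte and microglia list, miR-142-3p, miR-142-5p and miR-223-3p were lowest there, at 5.02, 1.26 and 2.64 CPM. miR-150-5p lay within the range of the others. The part of these markers in the levels of miR-7 and miR-153 was not tested.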

How the data were processed

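The authors purified small RNA from gels, prepared libraries with unique molecular identifiers (BGISEQ kit), trimmed adapters (Cutadapt 1.18), aligned to rn6 (STAR 2.7.0e) and counted per mature miRNA with featureCounts (Subread 1.6.4). The deposited values are raw counts. Merging of identifiers, the miRNA annotation and the treatment of multiple alignments are not given in the sources used here. The exact intervals of miR-671 counts therefore cover counting error only. The intervals of fold changes come from the edgeR fit and include the spread between rats. Each rat gave 1 library, and total counts are given in the report.

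The deposited counts were filtered with filterByExpr (minimum count 10), scaled with TMM factors and fitted with the quasi-likelihood test of edgeR 4.0.16 (R 4.3.3), METH against saline, group as the sole term, with Benjamini-Hochberg adjustment over 507 miRNAs and a threshold of 0.05. The standard error is the fold change over the square root of F. Log2 CPM used a prior count of 2 and ratios a pseudocount of 0.5. Ratios and sums were compared by exact permutation over 70 assignments. The fit was tested on simulated data. Alternatives used other scalings, filters, DESeq2 1.42.0, limma 3.58.1 (voom with sample quality weights), a block and left-out libraries. Named miRNAs were the members, the 3 nearest in pattern and the marker lists. A further list is not reported here. Members, lists and rules were chosen with earlier results of these data known. Sequences are from RefSeq (GRCr8).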

Additional observations from a re-analysis of the deposited data

Results flagged for a closer look

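Each group of 4 rats was searched for a value lying far outside its other 3, for the levels and ratios above. Of 28 such groups 1 met the criterion, and chance alone marks about 1 in 20. Saline rat 4 had a log2 ratio of miR-7a-5p to miR-7a-1-3p of 7.87, whereas saline rats 1 to 3 lay at 8.35, 8.40 and 8.38. The distance from the closest of them made up 0.915 of the span of the saline values. The same rat had the lowest saline level of miR-7a-5p, at 19025 CPM, and the lowest level of miR-7a-2-3p, at 12.0 CPM. METH rats 2 and 3 were near or below it, at 7.96 and 6.97. The cause was not tested.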

How the results depend on the processing

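No miRNA passed the adjusted threshold of 0.05 (0 calls) with any other scaling and filter, with limma voom and quality weights, and with the block. The number of calls was 8 with DESeq2, 7 with the likelihood ratio test and 6 with the exact test of edgeR. It was between 0 and 5 with 1 library left out, the highest without METH rat 1. None of the 7 miRNAs was called under any setting. With limma voom and quality weights the log2 fold change was -0.12 for miR-7a-5p, -0.11 for miR-7b and 0.062 for miR-671. With 1 library left out it ranged from -0.31 to 0.50 for miR-7a-5p, from -0.31 to 0.43 for miR-7b, from -0.41 to 0.12 for miR-7a-2-3p, from -0.095 to 0.53 for miR-153-3p and from -0.59 to -0.11 for miR-671. The summed miR-7 difference was -0.047 with library totals and ranged from -0.34 to 0.40 with 1 library left out, below zero without METH rat 4 or saline rat 4. With medians, the difference was -0.033 for miR-7a-5p over miR-7a-2-3p and 0.034 for miR-7b over miR-7a-5p. With 1 library left out, it ranged from -0.54 to 0.090 for miR-7a-5p over miR-7a-1-3p, from -0.21 to 0.35 for miR-7a-5p over miR-7a-2-3p, from -0.078 to 0.036 for miR-7b over miR-7a-5p, from -0.85 to 0.18 for miR-671 over miR-7a-5p, from 0.11 to 0.93 for the miR-153 arms and from 0.25 to 0.71 for miR-7a-1-3p over miR-7a-2-3p. The reversals came without METH rat 3 for miR-7a-5p over miR-7a-1-3p, without METH rat 4 for miR-7a-5p over miR-7a-2-3p and miR-671 over miR-7a-5p, and without saline rat 4 or METH rat 1 for miR-7b over miR-7a-5p. The cause was not tested for any of these.

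Of the nearest 3 miRNAs in pattern, those without METH rat 4 shared 0 with the full set for miR-7a-5p, 0 for miR-153-3p and 1 for miR-671. With Spearman correlation the numbers shared were 0, 1 and 0, with library totals 3, 2 and 1, and with deviations from the group means 1, 3 and 2. Library totals moved the median of all tested miRNAs to -0.12, and upper quartile factors moved it to 0.08. With the replicate block the log2 fold change of miR-7a-5p was 0.04 (edgeR adjusted p = 0.997). Rats with the same number share that number alone, and the correlations of their deviations were between -0.36 and -0.15. Every ratio used at least 16 counts of each member in each library, so leaving out libraries with fewer than 10 counts gave no other value. miR-671, with 16 to 61 counts, had the widest counting error of the 7.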

Other observations

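The seed of miR-7a-1-3p is shared with miR-3065-5p, which was looked up for that reason after the sequences had been compared. Its counts were 27, 47, 43 and 70 in saline rats 1 to 4 and 20, 42, 45 and 26 in METH rats 1 to 4. The levels were 1.88 ± 0.66 CPM (SD, n = 4) in saline and 1.72 ± 0.32 CPM (SD, n = 4) in METH, with a log2 fold change of -0.13 ± 0.32 (SE; edgeR adjusted p = 0.978). It was thus far less abundant than miR-7a-1-3p, at 86.7 ± 11.6 CPM (SD, n = 4) in saline and 111 ± 24.9 CPM (SD, n = 4) in METH.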
